A study of Rattus norvegicus with 52 samples.

Results

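Prolactin signalling through Stat5 was followed in sorted mammary epithelial cells of rats. The 9 genes were taken by symbol: the receptors Prlr and Ghr, the kinase Jak2, the transcription factors Stat5a and Stat5b, and the inhibitors Cish, Socs1, Socs2 and Socs3. All 9 were found among the 17356 gene symbols counted in each of 48 RNA-seq libraries. Rats of the ACI strain were either *Cdkn1b*+/+ (WT) or *Cdkn1b*-/- (KO). *Cdkn1b* encodes the cell-cycle inhibitor p27, and the knockout was germline and not restricted to the mammary gland. According to the study's methods, the KO alleles were small frame-shifting deletions made in Sprague-Dawley zygotes and crossed into ACI, and WT and KO females came from heterozygous crosses. At 9 weeks, 16 libraries covered each genotype in basal/myoepithelial cells (Cd24+ Cd29HIGH), mature luminal cells (Cd24+ Cd29LOW Cd49b- PNA-) and luminal progenitors sorted either as PNA+ or as Cd49b+, with 2 libraries for each sort and genotype. The PNA+ and Cd49b+ sorts together are called LP. At 4 weeks there were 3 WT basal, 3 WT luminal, 3 KO luminal and 2 KO basal libraries, with luminal cells sorted as Cd24+ Cd29LOW. At 6 weeks there were 3 WT basal libraries and 2 of each other kind. A separate experiment of 12 libraries took basal and luminal cells from ACI and BN females that received an empty implant (control) or one releasing E2 (estradiol) for 3 weeks. It had 2 libraries of each kind from ACI and 1 from BN, whose titles name a pair of rats each. Its labels give no *Cdkn1b* genotype, and its luminal titles carry the CD49b and PNA marks.

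Prolactin is a pituitary hormone that binds a receptor without enzyme activity of its own. Binding activates the receptor-bound kinase Jak2, which phosphorylates Stat5a and Stat5b, and these then move to the nucleus and switch on target genes. In the mammary gland the pathway drives alveolar development in pregnancy and milk protein synthesis in lactation. Growth hormone uses the related receptor Ghr and the same kinase and Stat proteins. Cish and the Socs proteins are feedback inhibitors, induced by Stat proteins, that block the receptor or the kinase. The RNA counts report transcript abundance and not phosphorylation.

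Stat5 dimers bind the palindrome TTCNNNGAA, which reads the same on both strands. Promoter windows of 250 bases before to 50 after the start site were available for 8 of the 9 genes from RefSeq (build GRCr8), all but Socs2, and 3 of the 8 genes held the motif. The window of Cish held 4 copies, at -241, -230, -136 and -119 counted to the first base of each motif from the start site. One of the windows of Prlr held 1 copy (TTCTAGGAA at -176), and Socs1 held 1 (TTCAGGGAA at -196). Among all 33469 promoter windows of this length, 8.87% held at least 1 copy, and 2 windows held 4 or more. The Cish window is shown because it carries the most copies among the 9 genes and because Cish is a feedback target of Stat5. The 250 bases before its start site lie at chr8:116850719-116850968 on the forward strand (GRCr8), with the motif in capitals.
Cish upstream: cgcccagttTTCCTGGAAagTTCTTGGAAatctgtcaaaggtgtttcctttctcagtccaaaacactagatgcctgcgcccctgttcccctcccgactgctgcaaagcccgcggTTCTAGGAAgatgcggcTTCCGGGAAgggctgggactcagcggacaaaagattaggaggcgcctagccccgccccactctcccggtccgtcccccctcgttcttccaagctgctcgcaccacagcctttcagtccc
A match is a description of the letters and not a measured binding site. Stat5b and Stat5a are neighbours on chromosome 10 (86205148 to 86276178 and 86285859 to 86310187, GRCr8) and are near-identical paralogs, so the split of reads between them is uncertain.

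Levels are given as CPM, in which each library's counts are scaled to the same total over all genes. Library totals ranged from 7985619 to 33859550 counts and were lowest at 6 weeks. Cdkn1b itself was lower in every KO than in every WT library at 9 weeks (KO 1.59 to 4.24 CPM, WT 6.00 to 18.0 CPM) and at 4 weeks (KO 4.30 to 15.2, WT 15.6 to 43.9 CPM), whereas at 6 weeks the genotypes overlapped (KO 11.1 to 30.2, WT 3.13 to 46.3 CPM). Because the deletions are small, reads from the mutated transcript can still be counted. Among genes with a median of at least 30 CPM in the other libraries of the same experiment and cell type, none was at 0 in the 9-week libraries. The first ACI E2 basal library had 6.77% of them at 0, the first ACI E2 luminal library 4.52%, the second KO luminal library of 6 weeks 2.06%, the third WT basal library of 6 weeks 1.63% and the BN E2 basal library 1.47%. The sum of 9 basal markers separated basal from luminal libraries in each experiment. In WT libraries the label mature luminal was not borne out by the hormone-sensing markers: Esr1, the estrogen receptor, was 7.33 and 7.86 CPM in the WT mature luminal libraries against 16.2 to 24.4 CPM in the 4 WT LP libraries. The 7 hormone-sensing markers summed to 209 to 267 CPM in WT mature luminal and 430 to 900 CPM in WT LP libraries, whereas in KO the mature luminal libraries, at 63.8 and 535 CPM, spanned the LP range of 206 to 501 CPM. The name of the LP sorts was not borne out by luminal progenitor markers either. Kit, Aldh1a3, Cd14 and Elf5 summed to 410 to 1092 CPM in WT LP and 754 to 1580 CPM in WT mature luminal libraries. In KO the sums were 599 to 1657 and 900 to 1925 CPM. Of these 4 none was called higher and 1 lower in LP than in mature luminal cells, where 23.4% of all genes were called. The names mature luminal and LP are kept below only as names of the sorts. Nothing in the labels says that the 9-week libraries of a group came from different rats, so p-values measure the spread between these libraries.

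Prlr, the prolactin receptor, had its highest values in luminal libraries of 4 and 6 weeks (91.3 to 233.7 CPM) and was low in basal libraries. The WT LP libraries of 9 weeks, at 111.5 to 145.2 CPM, lay within that luminal range. They came from a separate experiment with other sorts, so age cannot be told apart from experiment and sort. At 4 weeks the WT luminal libraries had 94.6, 195.1 and 176.0 CPM and the KO luminal libraries 233.7, 134.6 and 177.4 CPM. The 5 basal libraries of that age had 1.12 to 4.54 CPM. At 6 weeks the WT luminal libraries had 157.3 and 201.9 CPM and the KO luminal libraries 181.6 and 91.3 CPM. Every basal library therefore lay far below every luminal library at both ages, and the genotypes overlapped within luminal cells. At 6 weeks the basal libraries had only 2 to 19 Prlr reads each.

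**Figure D1:**
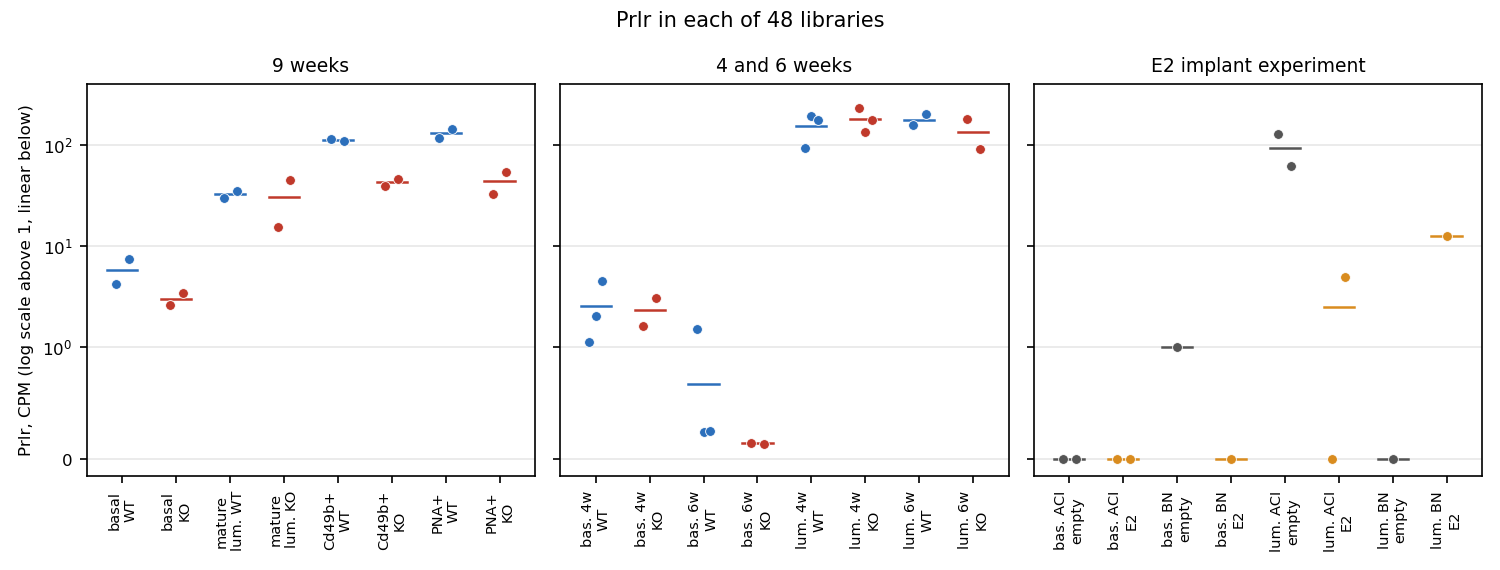
Prlr in each of the 48 libraries, in CPM on an axis that is linear below 1 and logarithmic above it, grouped by experiment, genotype or treatment and cell population, with each point 1 library and each bar a group mean. Luminal libraries of 4 and 6 weeks and WT LP libraries of 9 weeks lie highest, KO LP libraries lie below WT LP libraries, and basal libraries lie near 0.

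At 9 weeks the highest Prlr levels were in WT LP libraries, with 116.2 and 111.5 CPM in Cd49b+ and 117.7 and 145.2 CPM in PNA+ cells. The KO LP libraries had 39.7 and 46.8 CPM in Cd49b+ and 32.7 and 55.0 CPM in PNA+ cells. All 4 KO libraries were below all 4 WT libraries, and Prlr was the 1 member of 9 whose LP libraries did not overlap between the genotypes, against 17.8% of all genes tested. Mature luminal libraries had 29.8 and 35.4 CPM in WT and 15.6 and 45.7 CPM in KO, so that the WT values lay between the KO values. The basal libraries had 4.21 and 7.44 CPM in WT and 2.61 and 3.45 CPM in KO. The order of mean levels was WT LP, KO LP, WT and KO mature luminal, and then basal cells, and neighbours in this order overlapped from KO LP to mature luminal.

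In LP cells Prlr fell in KO rats by 1.19 on the log2 scale (SE 0.27, adjusted p = 0.0293, edgeR quasi-likelihood test on 4 against 4 libraries), from 122.6 ± 15.3 (SD, n = 4) to 43.5 ± 9.56 CPM (SD, n = 4). It was the 1 of 9 members called in this comparison, in which 3.4% of all 12809 genes tested were called. Of the genes tested 1.29% were lower and 2.12% higher in KO LP cells. The log2 ratio of the plain CPM means, without TMM scaling, was -1.49. The call did not hold when any of 6 of the 8 LP libraries was left out (adjusted p 0.0613 to 0.0948), and it held without the second KO Cd49b+ or the second KO PNA+ library. When the PNA+ and Cd49b+ libraries of 1 genotype and number were summed, the difference was -1.20 (SE 0.275) with an adjusted p of 0.528, and that fit called no gene (0 of 11975 tested). DESeq2 called 1079 genes in LP cells, Prlr among them (adjusted p = 0.00167).

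Other measures also differed between the LP groups, in part with overlapping ranges. The hormone-sensing markers summed to 206 to 501 CPM in KO LP and 430 to 900 CPM in WT LP libraries, and 1 of 6 tested, Foxa1, a factor that opens chromatin for the estrogen receptor, fell by 1.34 on the log2 scale (adjusted p = 0.0248). Endothelial markers summed to 86.9 to 731 CPM in KO and 342 to 658 CPM in WT LP libraries, with none of 6 called. Fibroblast markers summed to 173 to 1118 CPM (median 286) in KO and 615 to 1573 CPM (median 1103) in WT LP libraries, with none of 6 called and a median log2 difference of -1.04. Adipocyte markers summed to 189 to 543 CPM in KO and 432 to 575 CPM in WT LP libraries, with Cidec alone of 4 called, higher in KO. Their median log2 difference was 1.635, in the direction opposite to the sums. The 13 immediate early genes, which respond to cell dissociation, summed to 23487 to 29423 CPM in KO and 35837 to 40324 CPM in WT LP libraries, and 2 of them fell, Fosb by 0.81 and Btg2 by 0.94 on the log2 scale. The part of these in the Prlr difference was not tested. In bulk RNA, fewer cells with a transcript cannot be told apart from less transcript in each cell.

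In basal cells Prlr differed by -0.71 between the genotypes (SE 0.40, adjusted p = 0.632) and in mature luminal cells by 0.005 (SE 0.38, adjusted p = 1). None of the 9 members was called in basal cells, where 0.0546% of genes were called, or in mature luminal cells, where 0.133% were (0.101% higher and 0.0312% lower in KO). At an unadjusted p under 0.05 there was 1 member in basal and 0 in mature luminal cells, and DESeq2 called 0 members in either. The difference between the LP effect and the mature luminal effect was -1.20 for Prlr (SE 0.46, adjusted p = 1, edgeR). That between the LP and basal effects was -0.48 (SE 0.48, adjusted p = 0.883). In both interaction tests 0% of genes were called by edgeR, with 224 and 926 at an unadjusted p under 0.05. DESeq2 called 0 and 69. The tests of the difference therefore do not show that the Prlr effect was particular to LP cells.

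**Figure D2:**
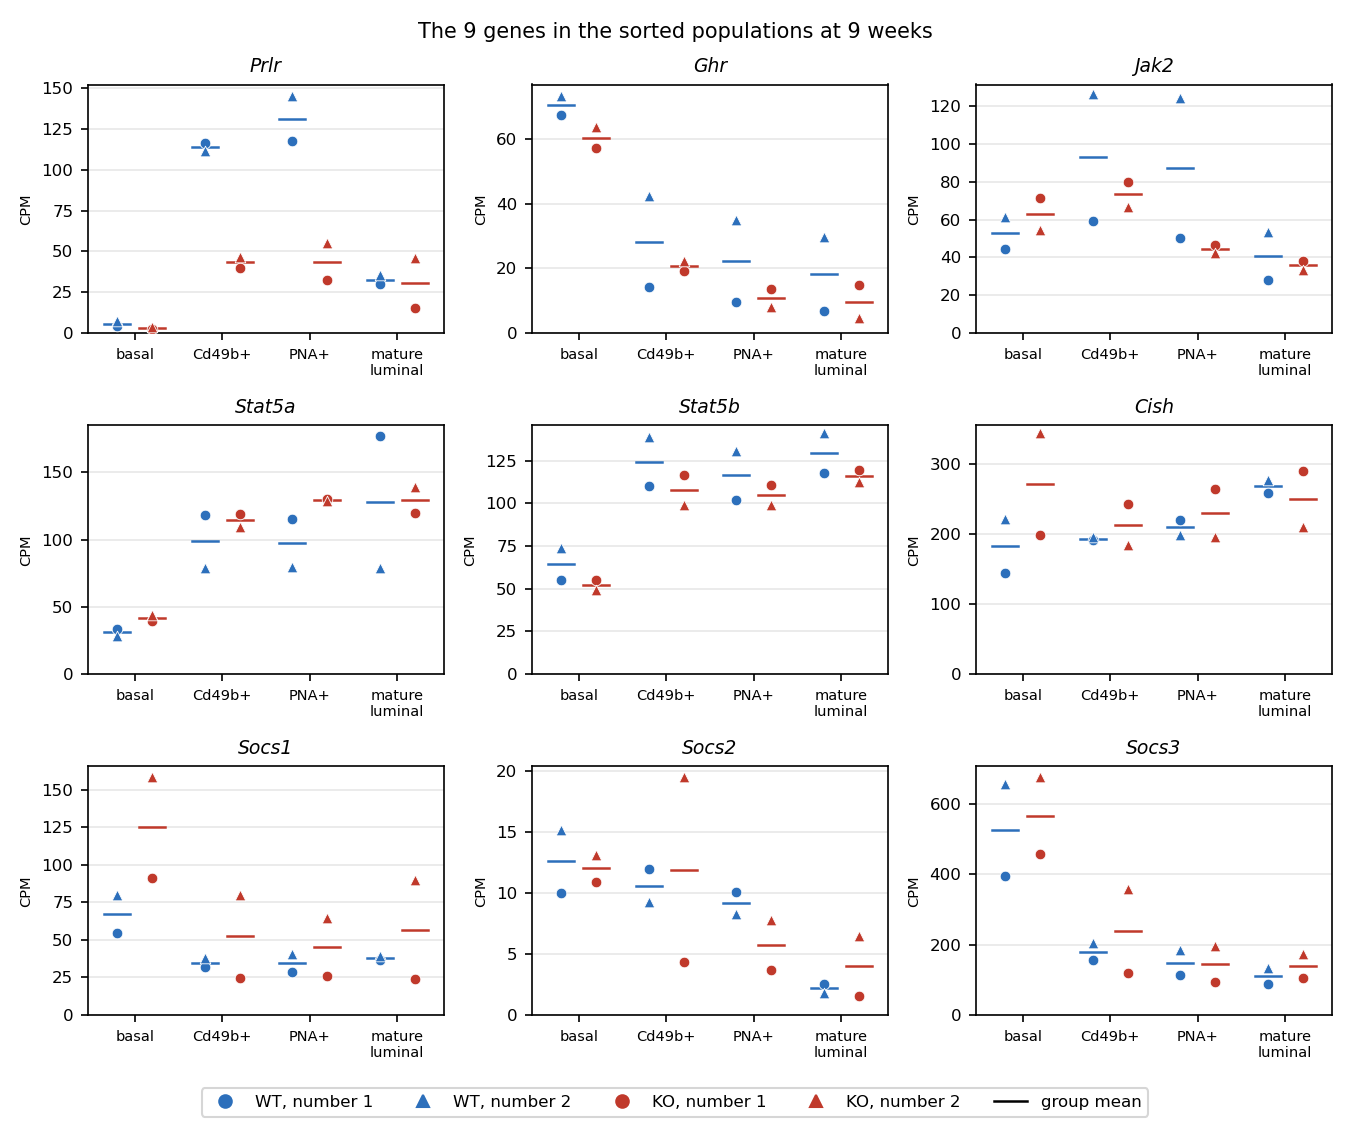
CPM of the 9 genes in the 16 libraries of 9 weeks, with each point 1 library, each bar a group mean and WT (blue) beside KO (red) within basal, mature luminal, Cd49b+ and PNA+ cells. Prlr is lower in KO than in WT LP libraries without overlap, and the other 8 genes overlap between the genotypes in LP cells.

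The genotypes were not told apart for any member at the younger ages. At 4 weeks 0% of 12082 genes were called between KO and WT in either cell type by edgeR (310 in basal and 435 in luminal cells at an unadjusted p under 0.05, and 2 and 0 by DESeq2). Prlr differed by 0.43 in luminal cells at 4 weeks (SE 0.44, adjusted p = 0.855). At 6 weeks 0% of 11921 genes were called in either cell type by edgeR (1072 and 1961 at an unadjusted p under 0.05), and DESeq2 called 414 and 1410. The luminal difference in Prlr at 6 weeks was -0.38 (SE 0.73, adjusted p = 0.824). In these luminal libraries fibroblast markers summed to 120 to 3102.5 CPM in KO and 16.6 to 33.5 CPM in WT. Endothelial markers summed to 159 to 1255 and 0.303 to 8.06 CPM, and adipocyte markers to 128 to 7006 and 14.3 to 17.5 CPM. Luminal markers summed to 8441 to 20387 CPM in KO and 19777 to 26643 CPM in WT. Their part in the luminal genotype differences of 6 weeks was not tested. Prlr in basal cells of 6 weeks differed by -2.24 (SE 0.91, adjusted p = 0.528), on 2 reads in each KO library and 2, 4 and 19 in the WT libraries.

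**Figure D3:**
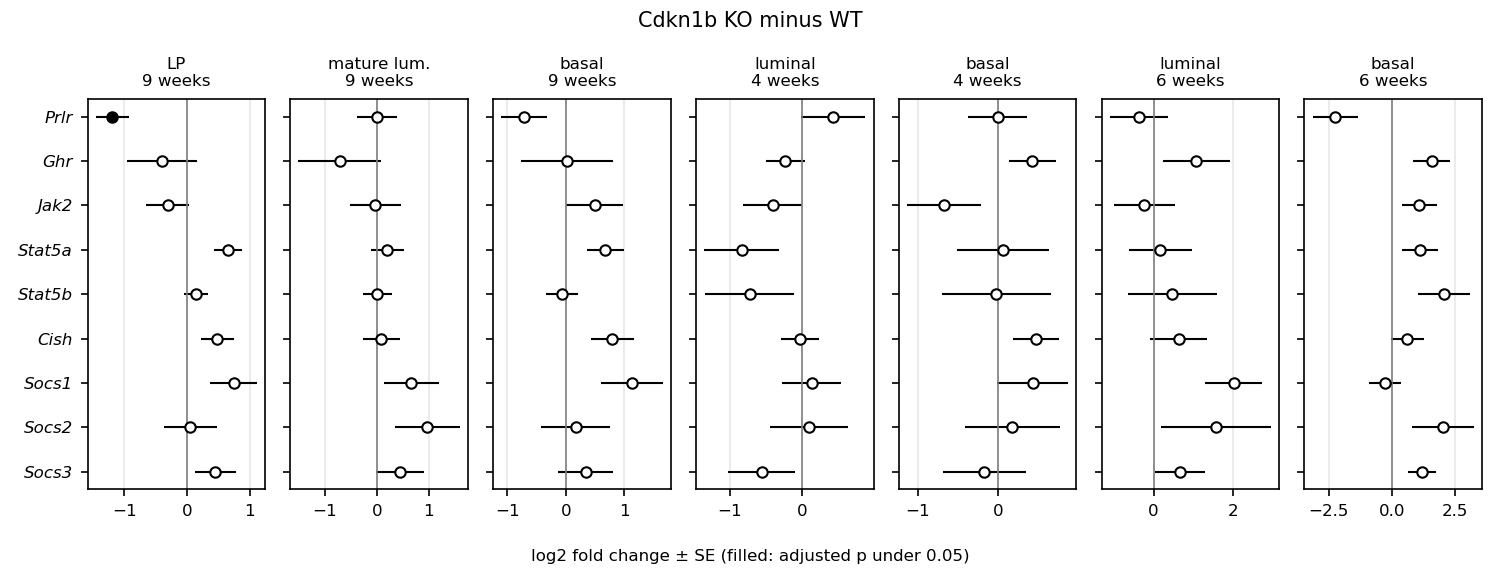
Log2 difference, KO minus WT, of the 9 genes with its SE in each population and age, from edgeR, with an axis of its own for each panel and filled points for an adjusted p under 0.05. Only Prlr in LP cells of 9 weeks passed an adjusted p of 0.05 (-1.19).

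Ghr, the growth hormone receptor, had the opposite distribution to Prlr, with higher levels in basal cells. At 9 weeks the WT basal libraries had 67.6 and 73.5 CPM and the KO basal libraries 57.2 and 63.8 CPM. Mature luminal libraries had 6.78 and 29.6 CPM in WT and 14.9 and 4.57 CPM in KO, all below the basal libraries. Ghr was higher in basal than in mature luminal cells by 2.10 (SE 0.58, adjusted p = 0.0117) at 9 weeks and higher than in luminal cells by 1.40 (SE 0.20, adjusted p = 0.000109) at 4 weeks. At 4 weeks the 5 basal libraries had 72.7 to 117.8 CPM and the 6 luminal libraries 28.3 to 40.3 CPM. At 6 weeks the difference was 1.72 (SE 0.58, adjusted p = 0.126), with the basal libraries spread from 10.1 to 137.9 CPM. In LP cells Ghr ran from 7.90 to 22.2 CPM in KO and from 9.57 to 42.3 CPM in WT libraries, with a difference of -0.41 (SE 0.56, adjusted p = 0.754). Fibroblast markers at 4 weeks summed to 1202 to 6388 CPM in WT and 2663 to 7924 CPM in KO basal libraries. In luminal libraries they summed to 80.3 to 428 and 37.1 to 271 CPM. Of 6 tested, 6 were called higher in basal cells at 4 weeks, 3 at 9 weeks and 0 at 6 weeks or in the E2 experiment. Their part in the basal differences of Ghr, and of Socs1, Socs2 and Socs3 below, was not tested.

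Jak2, the kinase bound to both receptors, was spread widely within groups. In WT LP libraries it was 59.5 and 126.6 CPM in Cd49b+ and 50.3 and 124.2 CPM in PNA+ cells, and in KO LP libraries 42.6 to 80.2 CPM. The second WT library was the higher in each of these sorts, and the genotypes overlapped. At 4 weeks Jak2 was lower in basal than in luminal cells, with a log2 difference of -1.05 (SE 0.31, adjusted p = 0.0199) and 16.2 to 81.4 CPM in basal against 53.3 to 147.0 CPM in luminal libraries. That call did not hold without the first KO basal library (-0.79, adjusted p = 0.0707). At 9 weeks the difference between basal and mature luminal cells was 0.45 (SE 0.35, adjusted p = 0.331), and with genotype and number as a block it was 0.50 (SE 0.15, adjusted p = 0.0168). The difference between the 4-week and 9-week results was not tested.

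Stat5a and Stat5b, the transcription factors, were higher in luminal cells. Stat5a in the WT mature luminal libraries was 177.5 and 78.8 CPM and in the KO mature luminal libraries 119.7 and 138.9 CPM. The 4 basal libraries of 9 weeks had 28.6 to 43.7 CPM, below every mature luminal library. The log2 difference, basal minus mature luminal, was -1.96 for Stat5a (SE 0.23, adjusted p = 3.12e-05). Stat5b, at 49.3 to 73.8 CPM in basal and 112.6 to 140.9 CPM in mature luminal libraries, differed by -1.22 (SE 0.20, adjusted p = 0.000292). At 4 weeks Stat5a was lower in basal than in luminal cells, with a difference of -1.499 (SE 0.40, adjusted p = 0.0105). Stat5b differed by -0.77 at that age (SE 0.47, adjusted p = 0.233), or -0.99 with the rat as a block (SE 0.32, adjusted p = 0.027). The second KO basal library of 4 weeks, with 32.4 CPM of Stat5a and 59.2 CPM of Stat5b, stood above the other basal libraries of its age, and without it Stat5b differed by -1.71 (adjusted p = 0.0108).

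Between the genotypes, Stat5a in LP cells was 109.6 to 130.2 CPM in KO and 79.1 to 118.6 CPM in WT libraries, which overlapped. The WT values were 118.6 and 115 CPM in the first Cd49b+ and PNA+ libraries and 79.1 and 79.9 CPM in the second ones. Its difference of 0.65 (SE 0.22, adjusted p = 0.138) missed the threshold, and without the second KO Cd49b+ library it was 0.77 (adjusted p = 0.0485). Stat5b in LP cells was 98.9 to 116.3 CPM in KO and 102.2 to 138.9 CPM in WT libraries, with a fitted difference of 0.14 (SE 0.19, adjusted p = 0.745) but a log2 ratio of plain CPM of -0.18, so its direction depended on the scaling. The share of Stat5a among the reads of both genes was 50.6 to 56.6% in KO LP libraries and 36.3 to 53.0% in WT LP libraries. In the second WT libraries it was 36.3 and 37.9% in Cd49b+ and PNA+ cells, against 51.9 and 53.0% in the first ones. The first WT libraries thus lay within the KO range, and the second ones below it. At 6 weeks the third WT basal library had 64 Stat5a and 8 Stat5b reads, a share of 88.9% (95% Wilson interval 79.6 to 94.3%, counting error only), and it is the library with 1.63% of well-expressed genes at 0. The second WT basal library of that age, with no such gene at 0, had 193 and 47 reads, a share of 80.4% (74.9 to 84.9%), and the first had 38.4%.

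The inhibitors did not move as 1 group. Cish, a direct Stat5 target that blocks the activated receptor, was at 144.9 to 345.2 CPM over the 16 libraries of 9 weeks. In LP cells it was 184.6 to 264.8 CPM in KO and 191.9 to 220.7 CPM in WT libraries, with a difference of 0.48 (SE 0.26, adjusted p = 0.347). At 4 weeks Cish was lower in basal cells, with 86.8 to 141.0 CPM against 178.1 to 304.2 CPM in luminal libraries, a difference of -1.07 (SE 0.20, adjusted p = 0.001). At 9 weeks that between basal and mature luminal cells was -0.36 (SE 0.26, adjusted p = 0.285).

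Socs3, which binds gp130-type receptors and Jak kinases, was called higher in basal cells at all 3 ages and in the E2 experiment. Its basal libraries had 396.1 to 676.9 CPM at 9 weeks and its mature luminal libraries 88.7 to 174.7 CPM. It was higher in basal cells by 2.00 at 9 weeks (SE 0.34, adjusted p = 0.000483), by 2.01 at 4 weeks (SE 0.35, adjusted p = 0.000576), by 1.74 at 6 weeks (SE 0.44, adjusted p = 0.0492) and by 2.25 in the E2 experiment (SE 0.36, adjusted p = 0.0166). The 6-week call did not hold without any of 7 of the 9 libraries, and that of the E2 experiment did not hold without the second ACI control basal library (adjusted p = 0.0514). Between the genotypes in LP cells Socs3 differed by 0.45 (SE 0.33, adjusted p = 0.507).

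Socs1, an inhibitor of Jak kinases, was higher in basal cells at 4 weeks, with 113.4 to 191.8 CPM in basal and 19.5 to 36.2 CPM in luminal libraries, a difference of 2.53 (SE 0.31, adjusted p = 3.35e-05). At 9 weeks it was 54.4 to 158.9 CPM in basal and 24 to 89.8 CPM in mature luminal libraries, and the difference of 0.88 (SE 0.37, adjusted p = 0.0772) was called with genotype and number as a block (0.95, SE 0.13, adjusted p = 5.42e-05) and without the second KO mature luminal library (1.40). In every 9-week sort the second KO library was the higher of the KO pair: 158.9 against 91.4 CPM in basal, 80.2 against 25.0 CPM in Cd49b+, 64.6 against 26 CPM in PNA+ and 89.8 against 24 CPM in mature luminal cells. In LP cells the genotypes overlapped, with WT libraries at 28.5 to 40.5 CPM and a difference of 0.74 (SE 0.37, adjusted p = 0.317).

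Socs2 is the inhibitor best known for growth hormone signalling. At 9 weeks its basal libraries had 10.0 to 15.1 CPM and the mature luminal libraries 1.57 to 6.46 CPM. It was higher in basal than in mature luminal cells by 1.97 (SE 0.44, adjusted p = 0.00328). It was also higher in LP than in mature luminal cells by 1.49 (SE 0.40, adjusted p = 0.0173), with LP libraries at 3.69 to 19.4 CPM, a call that did not hold without the first KO mature luminal library (adjusted p = 0.0532) or the second WT mature luminal library (adjusted p = 0.0619).

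More members were thus called between cell types than between genotypes, and the same was so for all genes. At 9 weeks 38.7% of all genes were called between basal and mature luminal cells and 3.4% between the genotypes in LP cells. In basal against mature luminal cells of 9 weeks 6 of 9 members were called, Ghr, Socs2 and Socs3 higher and Prlr, Stat5a and Stat5b lower in basal cells, where 38.7% of all genes were called (20.4% higher and 18.4% lower). Prlr differed by -3.02 (SE 0.29, adjusted p = 8.04e-06). With genotype and number as a block 8 of 9 members were called, and the share over all genes rose to 54.1%. At 4 weeks 7 of 9 members were called, where 35.1% of genes were (20.3% higher and 14.8% lower in basal cells), and Prlr differed by -6.07 (SE 0.45, adjusted p = 5.92e-07). At 6 weeks 3 of 9 were called, against 5.65% of genes (3.49% higher and 2.16% lower in basal cells). Prlr differed by -8.93 (SE 0.73, adjusted p = 0.000491), Stat5a by -2.59 (SE 0.56, adjusted p = 0.0273), and Socs3 was the third. The size of the Prlr difference at 6 weeks rests on very few basal reads. The Stat5a call at 6 weeks did not hold with the rat as a block (adjusted p = 0.0672) or without any of 5 of the 9 libraries. In LP against mature luminal cells 2 of 9 members were called, Prlr (1.07 higher, SE 0.24, adjusted p = 0.00793) and Socs2, where 23.4% of genes were called (11.7% in each direction). With genotype and number as a block 6 of 9 were called, in a fit that called 45.8% of all genes. It added Jak2 (0.74 higher in LP, SE 0.14, adjusted p = 0.002) and, lower in LP cells, Stat5a (-0.35), Stat5b (-0.28) and Socs1 (-0.30). All 6 endothelial markers were also higher in LP than in mature luminal cells, led by Kdr (2.75) and Tek (2.61), and their part in these differences was not tested. Between the PNA+ and Cd49b+ sorts no member was called, nor was any gene by edgeR (0%, with 358 at an unadjusted p under 0.05 and 45 called by DESeq2), and Prlr differed by 0.20 (SE 0.17).

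**Figure D4:**
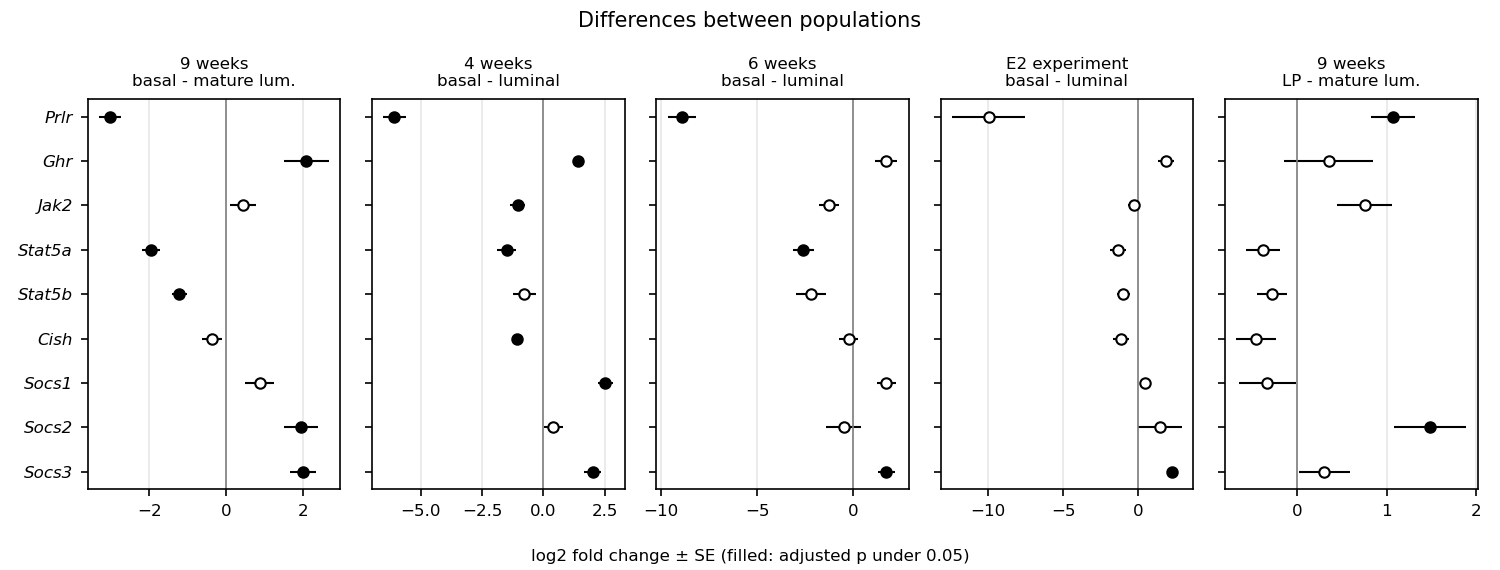
Log2 difference between cell types for the 9 genes with its SE, from edgeR, with an axis of its own for each panel and filled points for an adjusted p under 0.05, for basal against mature luminal and LP against mature luminal cells of 9 weeks and basal against luminal cells of 4 weeks, 6 weeks and the E2 experiment. Prlr, Stat5a and Stat5b lie below 0 and Ghr and Socs3 above 0 in each basal comparison.

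Genes known as Stat5 targets in mammary cells were read from a list of 19, of which 18 were tested at 9 weeks. In KO against WT LP cells 2 of 18 rose and none fell, with a median log2 difference of 0.62 against 0.03 over all genes tested. Wap, whey acidic protein, was 715 to 2250 CPM in the KO and 95.1 to 157.1 CPM in the WT LP libraries, with no overlap, and rose by 3.97 (SE 0.39, adjusted p = 0.000216). Csn1s2b, a casein gene, was 178.9 to 265.7 CPM in KO and 127.7 to 164.7 CPM in WT LP libraries and rose by 1.04 (SE 0.21, adjusted p = 0.0183). The basal libraries of 9 weeks also held luminal markers, which summed to 8499 and 8591 CPM in KO and 5367 and 9341 CPM in WT. In mature luminal libraries these summed to 28321 to 37670 CPM in KO and 28227 to 50890 CPM in WT. Milk protein genes summed to 25243 and 32740 CPM in KO basal and 7364 and 4484 CPM in WT basal libraries. The part of luminal RNA in the basal levels was not tested. Wap also rose in basal cells by 4.59 (SE 0.57, adjusted p = 0.00631) and in mature luminal cells by 3.08 (SE 0.53, adjusted p = 0.0399), each time as the only target of 18 called. Neither call was stable: edgeR called no gene at all in basal cells without the second KO or the first WT basal library, or in mature luminal cells without either WT library or with the compared libraries alone.

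Csn2, beta-casein, was 45458 to 136786 CPM in KO and 1011 to 22030 CPM in WT LP libraries. The groups did not overlap, but the WT libraries differed among themselves: the first had 15716 and 22030 CPM and the second 1011 and 1346 CPM in Cd49b+ and PNA+ cells. The difference of 3.38 (SE 1.09, adjusted p = 0.113) missed the threshold. Elf5, a factor that acts with Stat5 in alveolar cells, was 45.1 to 71.1 CPM in KO and 44.2 to 63.4 CPM in WT LP libraries (0.47, SE 0.24, adjusted p = 0.314). Ccnd1, cyclin D1, was 124.7 to 144.1 CPM in KO and 198.5 to 477.7 CPM in WT LP libraries, without overlap, but its difference of -0.98 (SE 0.41, adjusted p = 0.216) missed the threshold. The other milk protein genes overlapped between the genotypes, among them Csn3 (1.38, SE 0.43, adjusted p = 0.0991), Csn1s1 (0.67, adjusted p = 0.545) and Lalba, alpha-lactalbumin (1.01, adjusted p = 0.505).

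**Figure D5:**
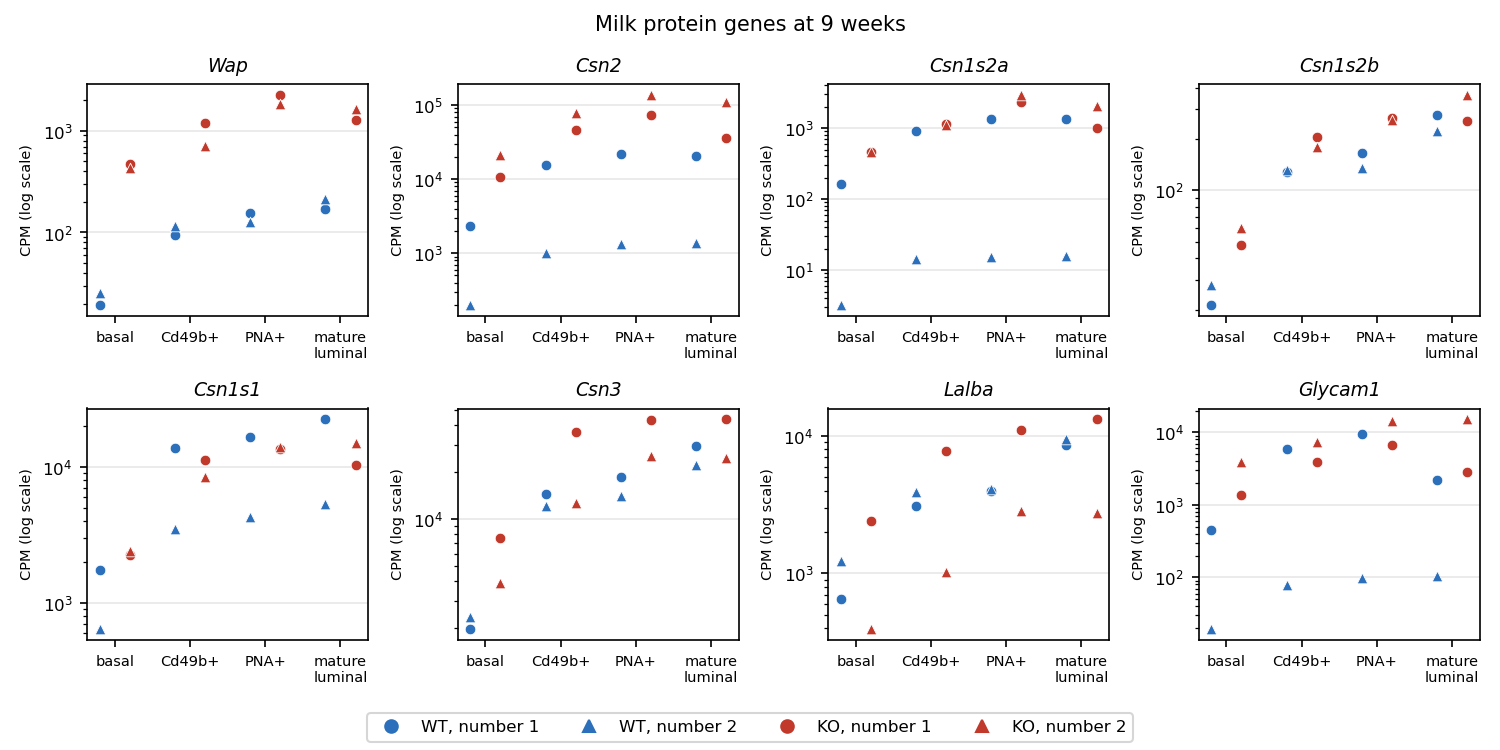
The 8 milk protein genes among the Stat5 targets at 9 weeks, in CPM on a log axis, with each point 1 library, WT in blue, KO in red, number 1 as circles and number 2 as triangles. Wap and Csn2 are higher in every KO than in every WT LP library, and the WT libraries spread widely in Csn2.

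Summed over the milk protein genes of the list, the KO LP libraries had 107174 to 198505 CPM and the WT LP libraries 20847 to 72483 CPM. Prlr and this sum thus stood in opposite order between the genotypes in LP cells, with the receptor lower and the sum higher in KO. Between cell types both were lower in basal cells: of the 18 targets 6 were lower and 3 higher in basal than in mature luminal cells, where 38.7% of all genes were called, with a median difference of -1.78 against -0.045 over all genes. The largest differences downwards were Csn3 (-3.24), Elf5 (-3.15) and Csn1s1 (-3.11). Those higher in basal cells were Bcl6, a transcriptional repressor (1.36), the kinase Pim2 (0.73) and the kinase Akt1 (0.47). At 4 weeks 9 of 17 targets were lower and 2 higher in basal cells, where 35.1% of all genes were called. At 6 weeks 6 of 17 were lower and 0 higher, against 5.65% of all genes, and in the E2 experiment 5 of 17 were lower and 0 higher, against 1.86%. No target was called between the genotypes at 4 or 6 weeks.

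Other genes of the pathway were counted from fixed lists. The hormones themselves were near absent from these cells: Prl, prolactin, reached at most 0.28 CPM and Gh1, growth hormone, at most 0.79 CPM in any library. Of 6 ligands tested in LP cells 1 rose in KO, Il7, which signals through Stat5 in lymphocytes (2.84, SE 0.45, adjusted p = 0.00593), and none fell. Of 14 adaptors and effectors of the receptor 1 fell, Shc1, an adaptor to the Ras pathway, with 20.7 to 29.4 CPM in KO and 73.7 to 133.1 CPM in WT LP libraries (-1.67, SE 0.29, adjusted p = 0.00871). Of 13 other receptors of Jak kinases 1 rose, the interferon gamma receptor Ifngr1 (0.83, SE 0.19, adjusted p = 0.0347). None of 8 other Jak and Stat genes, of 5 other SOCS box genes or of 10 phosphatases and other inhibitors was called. Most of the pathway's other genes thus did not pass the test between the genotypes in LP cells, the comparison in which 3.4% of all genes did.

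Between basal and mature luminal cells, where 38.7% of all genes were called, the same lists held more calls. Of the adaptors and effectors 5 were higher and 2 lower in basal cells, with Irs1, a docking protein of the insulin receptor (2.84), and the kinase Src (2.53) higher and Erbb4, a receptor kinase that acts with Stat5a (-3.63), lower. Of the other receptors 5 were higher, led by Il6r (2.39) and Osmr (1.86), and 2 lower. Of the other Jak and Stat genes 3 of 8 were lower, led by Jak3 (-1.32), and none was higher. Socs5 was the 1 of 5 other SOCS box genes called (2.66 higher). Of 10 phosphatases and other inhibitors 5 were higher, led by Cav1, caveolin (4.16), and Ptpn6, the phosphatase SHP-1, was lower (-1.02).

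In the E2 experiment Prlr was found mainly in ACI control luminal cells. Its level was 128.1 and 62.0 CPM in the 2 ACI control libraries, 0 and 4.96 CPM in the ACI E2 libraries, 0 in the BN control library and 12.6 CPM in the BN E2 library. No other luminal library of the experiment reached the ACI control libraries. The basal libraries had 0 reads of Prlr in 5 of 6, the exception being BN control with 1.00 CPM (23 reads). A count of 0 allows up to 0.131 CPM in the ACI control basal library with the fewer reads, and the ACI control luminal mean of 95 CPM was 727-fold this value. The limit covers counting error only and not transcripts lost before sequencing. Between E2 and control luminal cells, with strain as a term, Prlr differed by -3.91 with an SE of 4.45 (adjusted p = 0.999). The hormone-sensing markers were also highest in the ACI control luminal libraries, with sums of 1061 and 894 CPM. Their sum was 360 and 158 CPM in the ACI E2, 32.6 CPM in the BN control and 98.8 CPM in the BN E2 luminal library. Outside ACI control the order of the sums was not that of Prlr. The ACI E2 library with 360 CPM and 0 Prlr had 4.52% of well-expressed genes at 0. The part of the sampled cell mixture in the Prlr levels was not tested.

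None of the members tested was called for E2 or for strain in either cell type, where 0% of genes were called by edgeR. At an unadjusted p under 0.05 there were 468 genes for E2 and 527 for strain in luminal cells and 181 and 89 in basal cells, and DESeq2 called 177, 465, 106 and 19. Prlr was not tested in basal cells, where 8 members were. Socs1 in luminal cells was 161.2 and 248.4 CPM in ACI control and 86.8 and 43.5 CPM in ACI E2 libraries, and 93.4 CPM in BN control and 85.0 CPM in BN E2. The control libraries were above the E2 libraries in each strain, with a difference of -1.37 (SE 0.56, adjusted p = 0.999). Control and E2 libraries of both strains together did not overlap, as was so for 9.96% of all genes tested. The immediate early genes were lower in the same E2 libraries: they summed to 99768 and 112258 CPM in ACI control against 25895 and 69136 CPM in ACI E2, and to 129964 CPM in BN control against 48364 CPM in BN E2. Their part in the Socs1 levels was not tested. Socs2 had 0 reads in the BN E2 luminal library and 0.66 to 22.9 CPM in the others. Jak2 in basal cells was 74.8 to 125.5 CPM in ACI and 26.6 and 38.2 CPM in BN libraries, a difference of 1.37 (SE 0.47, adjusted p = 1, ACI minus BN). The strains did not overlap in 8.6% of all genes tested in basal cells. Milk protein genes summed to 5328 and 7082 CPM in ACI control, 11076 and 93743 CPM in ACI E2, 2357 CPM in BN control and 60258 CPM in BN E2 luminal libraries, and no Stat5 target of 17 was called. Within the experiment 1 of 9 members, Socs3, was called between basal and luminal cells, where 1.86% of genes were (1.08% higher and 0.788% lower in basal cells). Prlr differed there by -9.95 (SE 2.43, adjusted p = 0.062).

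Between 4 and 6 weeks in WT rats 1 of 9 members was called in basal cells, where 10.5% of genes were (5.68% lower and 4.82% higher at 6 weeks). Socs3 was 737.5, 906.0 and 748.5 CPM at 4 weeks and 247.0, 105.3 and 64.7 CPM at 6 weeks. These did not overlap, as was so for 37.2% of all genes tested. Socs3 fell by 2.40 on the log2 scale (SE 0.52, adjusted p = 0.00877). In luminal cells it was 304.7, 173.8 and 207.5 CPM at 4 weeks and 61.7 and 41.9 CPM at 6 weeks (-2.18, SE 0.61, adjusted p = 0.0573), and no member was called where 3.1% of genes were (1.92% lower and 1.19% higher). At an unadjusted p under 0.05 there were 2597 genes in luminal cells, 3 of them members, and DESeq2 called 2 members and 13.8% of all genes. Other measures moved with age as well. The immediate early genes summed to 29312 to 36689 CPM at 4 weeks and 8918 to 13190 CPM at 6 weeks in WT basal cells, with 10 of 13 falling, and to 37516 to 43848 and 13473 to 14938 CPM in WT luminal cells, with 6 of 13 falling. Basal markers summed to 15171 to 17104 CPM at 4 weeks and 4734 to 6318 CPM at 6 weeks in WT basal cells. Fibroblast markers there summed to 1202 to 6388 CPM at 4 weeks and 67.1 to 567 CPM at 6 weeks, with 2 of 6 falling and a median log2 difference of -3.85. Myeloid markers summed to 4.31 to 8.21 CPM at 4 weeks and 8.59 to 297 CPM at 6 weeks, with 3 of 9 rising. Their part in the fall of Socs3 was not tested. Prlr in WT luminal cells did not differ detectably between the ages (0.26, SE 0.57, adjusted p = 0.842).

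The patterns of the 9 genes were compared over the 24 groups of libraries, as mean log2 CPM (prior count 2) after the mean of each of 3 experiments (9 weeks, 4 and 6 weeks, E2) was subtracted, with the caution that groups share rats, batches and depth. Among the members the highest Pearson r was between Ghr and Socs3 (0.85), both higher in basal cells, followed by the paralogs Stat5a and Stat5b (0.80). Ghr and Stat5a ran opposite (-0.70), as did Prlr and Socs3 (-0.68). Of 8446 genes, those most like Prlr were Ret (0.91), Aadat (0.88) and Aqp5 (0.88). Stat5a was most like Olah (0.91), Plscr2 (0.90) and Elf5 (0.90), and Ghr most like Oxtr (0.93), Ptprt (0.92) and Ehbp1 (0.91). Stat5b was most like Gfra3 (0.87), Dnase2 (0.86) and Cd14 (0.86), and Jak2 less closely like any gene, with Ncln at 0.76, Senp2 at 0.75 and Fmo5 at 0.75. Among the nearest genes to Cish were Aldh5a1 (0.87) and Cyp2t1 (0.85), and to Socs1 Igfbp3 (0.88) and RGD1305645 (0.83). Socs2 was most like Stard4 (0.91), Il4r (0.89) and Spsb1 (0.87), and Socs3 like Rasl11a (0.91), Birc2 (0.90) and Rhbdl3 (0.90).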

How the data were processed

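Sorted cells were sequenced by the authors from less than 10 ng of RNA (SMARTer v4, 75-base single-end reads). The authors aligned the reads to rn6 with STAR 2.5.1b, assigned them to refGene genes with HTSeq, and deposited raw counts per gene for each library. Rows for unassigned reads, 47.1 to 77.0% of reads, were left out of totals and tests. Levels are CPM computed from the counts, which were compared with edgeR 4.0.16 (TMM, filterByExpr, quasi-likelihood test, two-sided, Benjamini-Hochberg over all genes kept, threshold 0.05) in R 4.3.3, for 21 comparisons. SDs are over libraries. The 9 genes, the lists and the tests were chosen with earlier results of these data known. Outside the 9 genes, up to 3 genes per list and direction were named by size of change among those called, and a few more for background. The 3 genes most like each member were named, except that some are not reported here. A level of 0 was taken as under 3 counts, which covers counting error only. DESeq2 1.42.0, RLE scaling, other filters, blocks and leave-one-out fits were alternatives. The fits were also run on simulated counts drawn independently for each library, and for E2 in luminal cells with less spread than the data had. That run therefore cannot show how the fits behave with linked libraries or with the spread of the E2 experiment. Libraries of 1 genotype and number at 9 weeks deviated together from their group means (r 0.342 to 0.935 over 24 pairs), as did those of 1 rat at 4 weeks (0.238 to 0.839) and in the E2 experiment (0.134 to 0.226). The 2 libraries of a group deviate from its mean as mirror images. At 9 weeks and in the E2 experiment each r therefore occurs once per number and is not a separate value. At 6 weeks r was -0.002 to 0.073, although titles give the same rats. The 2 peak lists and the immunoprecipitation libraries were not used here.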

Additional observations from a re-analysis of the deposited data

Results flagged for a closer look

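In 6 of 54 pairs of contrasts every library of 1 contrast moved one way and every library of the other the opposite way. The difference between the contrasts was not tested in any of these 6, and the share of such pairs over all genes was not counted. Within single contrasts, KO and WT did not overlap in 41.7% of all genes in basal cells at both 6 and 9 weeks. In luminal cells this was 13.4% at 4 weeks and 48.2% at 6 weeks. Each BN contrast set 1 library against 1, which cannot overlap.

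For Prlr in luminal cells the ACI E2 mean was 2.48 CPM against 95 in control, and the BN E2 library had 12.6 CPM against 0. Cish in luminal cells was 252 CPM in ACI E2 against 376 in control, and 320 in BN E2 against 275 in control. Socs1 in basal cells was 175 CPM in ACI E2 against 121 in control, and 156 in BN E2 against 168 in control.

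Ghr in basal cells was 97.1 CPM in KO against 29.8 in WT at 6 weeks, and 60.5 against 70.6 at 9 weeks, with fitted differences of 1.58 (adjusted p = 0.574, edgeR) and 0.02 (adjusted p = 0.996). Stat5b in basal cells was 33.8 CPM in KO against 7.68 in WT at 6 weeks, and 52.1 against 64.5 at 9 weeks, with fitted differences of 2.07 (adjusted p = 0.594, edgeR) and -0.07 (adjusted p = 0.974). In the same basal libraries of 6 weeks basal markers summed to 12224 to 15478 CPM in KO and 4734 to 6318 CPM in WT, and fibroblast markers to 2336 to 3292 CPM in KO and 67.1 to 567 CPM in WT. Their part in the Ghr and Stat5b levels was not tested. Ghr in luminal cells was 28.8 CPM in KO against 37.8 in WT at 4 weeks, and 23.0 against 11.1 at 6 weeks. In the luminal libraries of 6 weeks fibroblast markers summed to 120 to 3102.5 CPM in KO and 16.6 to 33.5 CPM in WT. Their part in the luminal Ghr levels was not tested. Of 18 sets of 4 LP libraries (9 genes in each genotype) none held a single library far from the rest. The rule used the gap between the most extreme library and the next, so 2 libraries that deviate together pass it. Jak2 in WT LP libraries, at 50.3 and 59.5 CPM in the first and 124.2 and 126.6 CPM in the second ones, is such a set.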

How the results depend on the processing

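Of 187 results for single members 21 were called, and 2377 values under alternatives gave 24 calls lost, 40 gained and 0 called values that changed sign. Where leaving out a library left 1 in a group, it was taken to vary like the other groups. The number of members called moved as follows. In LP cells between the genotypes it was 1 and ranged from 0 to 2 with single libraries left out, and was 0 with libraries summed by genotype and number. For LP against mature luminal cells it was 2, ranged from 1 to 2 with single libraries left out, and was 6 with genotype and number as a replicate block. For basal against luminal cells at 6 weeks it was 3, ranged from 1 to 4 with single libraries left out, and was 6 by DESeq2. For age in WT basal cells it was 1, ranged from 1 to 3 (3 without the first WT basal library of 6 weeks), and was 2 with at least 10 counts in every library, 2 with RLE scaling and 4 by DESeq2. RLE scaling moved the median of all genes there from 0 to -0.165 and the share of calls that were higher at 6 weeks from 45.9% to 35.4%. For age in WT luminal cells it was 0, and was 2 with at least 10 counts in every library, 2 by DESeq2, 1 with no filter and 2 with the compared libraries alone. For basal against luminal cells of the E2 experiment it was 1, ranged from 0 to 2 with single libraries left out (0 without the second ACI control basal library), and was 2 with at least 10 counts, 3 by DESeq2 and 2 with no filter. For the genotypes in luminal cells of 6 weeks it was 0 and ranged from 0 to 1, the 1 being Socs1 (2.61) without the first KO luminal library. DESeq2 also called more of all genes: 17.7% between cell types at 6 weeks, 20.9% and 13.8% for age in basal and luminal cells and 14.7% between cell types in the E2 experiment. The cause of these shifts was not tested. The other results, among them basal against mature luminal cells (6 to 7 with single libraries left out) and against luminal cells at 4 weeks (6 to 8), kept their counts within 1.5 times.

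Same-numbered WT and KO libraries of 9 weeks deviated in opposite directions (r -0.453 to -0.172 over 8 pairs, each r occurring once per number), so that the number pairs libraries within a genotype only. With the number as a block across genotypes Prlr in LP cells was -1.20 (adjusted p = 0.00664), and with the numbers crossed between the genotypes, an alternative chosen after seeing the data, 1 member and 1284 genes were called there. The block by genotype and number, or by rat, changed no call other than those given in the report. In basal cells of 6 weeks and of the E2 experiment, most libraries held too few Prlr reads for a difference to be detectable.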
